A study of Drosophila melanogaster with 8 samples.

Results

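Homeodomain transcription factors and their POU, LIM, Cut, sine oculis and zinc finger subclasses give neurons of the fly brain their identity. Peaks of open chromatin at 44 such genes were compared between neurons that were labelled by a reporter of fruitless (fru) transcription and neurons that were not, in males and in females. The genes were given as a fixed list, and for each one the peaks that overlapped the gene body or the 2 kb on either side were taken (the gene window). Of 13945 protein-coding genes, 9958 had a peak in such a window in at least 1 peak list, and 42 of the 44 homeobox genes were among them. The windows of these genes held 108 merged regions of open chromatin, out of 14709 in the whole series, and no region lay in the windows of 2 of the 44 genes.

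Homeodomain proteins bind short AT-rich DNA sites, and single neuroblast lineages and neuron types of the fly brain are told apart by the combination of these proteins that they hold. LIM homeodomain proteins act in axon pathfinding and transmitter choice, POU proteins such as Acj6 set the wiring and receptor choice of olfactory neurons, and Extradenticle with Homothorax are partners of Hox proteins. The fru gene is transcribed from its P1 promoter in the neurons that direct male courtship. Its male splice form gives the FruM protein, which is made in males and not in females.

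All flies were w1118 adults of 2 to 7 days that carried UAS-mCD8-GFP over MB247-Gal80, and Fru-GAL4 over the balancer TM2 or TM6B. Neurons of the central brain, with the optic lobes removed, were sorted into GFP-positive (fru+) and GFP-negative (fru-) cells in each sex, which gave 4 groups with 2 replicates each. They are called male fru+ and female fru+, and male fru- and female fru-, and where 4 values follow each other without names they stand in this order. GAL80 under MB247 turned the reporter off in Kenyon cells of the mushroom body, so that fru-transcribing Kenyon cells fell into the fru- groups, and cells with FruM are in male fru- as well as in male fru+. Each group had 1 peak list from ATAC-seq, an assay in which the Tn5 transposase cuts open DNA, and each list is a mixture of many neuron types, so that a change in accessibility per cell and a change in the share of cells cannot be told apart.

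The titles and the free-text descriptions of the samples disagreed for 2 groups, since samples titled female fru+ were described as male fru- and the reverse. Over the regions present in all 4 lists, the median fold enrichment on X divided by that on the autosomes was 0.917 and 0.908 in the lists titled male (fru+ and fru-) and 1.15 and 1.14 in those titled female, which is the order that the titles give. The lists held 11206 to 11602 peaks. The genome background in fragments, a measure of depth, was 18.0, 14.3, 18.9 and 16.4, lowest for fru+ females. The weakest 1% of peaks in each list had a median fold enrichment of 2.06 to 2.18, and a region that a list lacks may lie just under this level. The labels describe each list as both replicates pooled, while each peak's name has a tag of only 1 replicate (1 for males, 2 for females). If these tags hold, sex and replicate cannot be told apart. There was no second list for any group, so replicate error is unknown and groups were not tested against each other. Intervals on shares are 95% Wilson intervals and cover counting error only.

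Among marker genes, all 6 neuronal genes (elav, nSyb, brp, Syt1, Rdl and para) had a peak in every list, with 24 to 27 peaks per list. The glial determinant repo had no peak in any list, while 4 of the 6 glial genes (moody, Gs2, wrapper and nrv2) had a peak in every list, and the 6 together held 5 or 6 peaks per list. The 7 Kenyon cell genes held 15 peaks in each fru+ list, 17 in male fru- and 16 in female fru-, and their covered sequence was 10231 and 10738 bp in the fru+ lists against 13126 and 11757 bp in the fru- lists. The part of Kenyon cells in the differences by fru status was not tested.

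Most of the homeobox genes were open in the same way in all 4 groups. The windows held 97, 94, 95 and 97 peaks, which covered 56902, 54632, 57621 and 57523 bp. Of the 42 homeobox genes with a peak, 29 had the same number of peaks in every list, and 19 had exactly 1 peak in every list. Among all protein-coding genes with a peak, 59.1% had the same number in every list. Of the 108 regions, 83 were present in all 4 lists (76.9%, 68.1 to 83.8), against 60% (59.1 to 60.8) of the 12397 regions in windows of all protein-coding genes. Away from promoters 42 of 65 were in all 4 lists (64.6%, 52.5 to 75.1) against 37.4% (36.2 to 38.5) in all windows, and at promoters 41 of 43 were (95.3%, 84.5 to 98.7) against 87.8% (86.9 to 88.6). Regions of these genes were also strong. The strength of a region, its highest percentile rank by q-value within a list, had a median of 89.3 over the shared regions of the homeobox genes and 68.5 over all shared regions. Among regions of strength above 50 the shares in all 4 lists were 96.2% (89.3 to 98.7) and 96.6% (96.1 to 97.1), and these intervals overlapped.

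**Figure D1:**
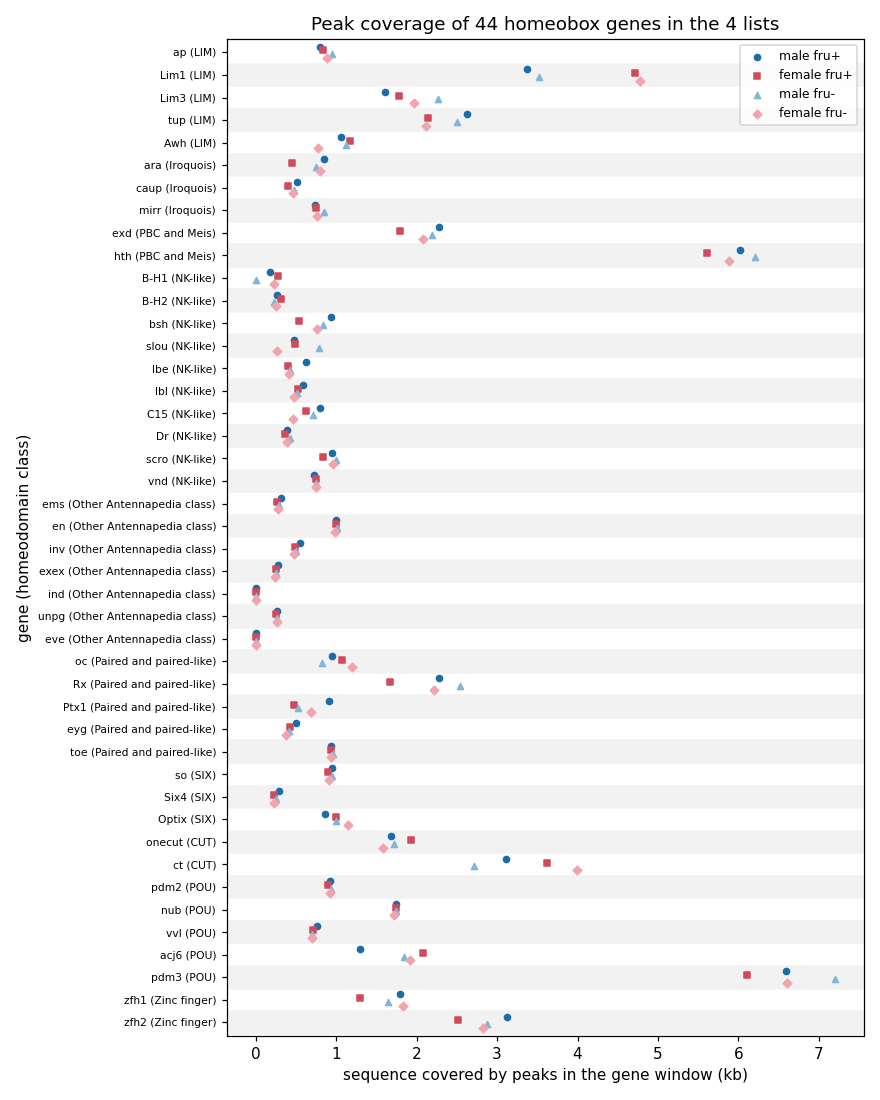
Sequence covered by peaks (kb, x axis) in the gene window of each of the 44 homeobox genes (y axis, with the homeodomain class), with 1 point for each of the 4 lists. The points of most genes lie close together, hth and pdm3 have the most covered sequence, and ind and eve lie at 0 in every list.

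**Figure D2:**
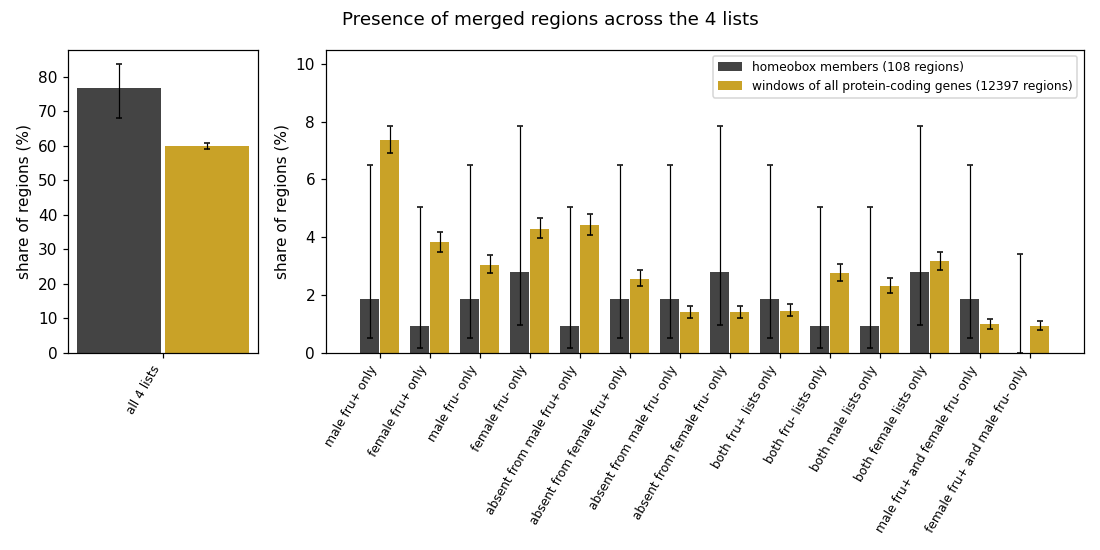
Share of merged regions (%) in each pattern of presence across the 4 lists, for the windows of the homeobox genes and for the windows of all protein-coding genes, with bars for the share and lines for the 95% Wilson interval. The share in all 4 lists is 76.9% against 60%, and each other pattern holds at most 3 of the 108 homeobox regions.

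The promoters carried much of this common accessibility. A region counted as a promoter region of a gene when it came within 50 bp of one of its start sites. Of the 42 homeobox genes with a peak, 35 had a promoter region of their own in all 4 lists, as did 61.1% of the 9958 genes with a peak. The 44 homeobox genes had a median length of 15417 bp against 2651 bp for the 9958 genes, and the part of gene length in this difference was not tested. The 37 promoter regions of the 35 genes (2 each for Lim3 and hth) were higher than most, with a median fold enrichment over the local background of 11, 11.18, 11.57 and 11.59. Shared promoter regions of all protein-coding genes had medians of 6.35, 6.69, 6.85 and 7.03 in the same order. Within the set the fold ran from 4.66 at zfh2 in male fru+ to 18.11 at lbl in male fru-. The ratio of fru+ to fru- lists at these promoters, after each list was divided by its own median over shared regions of X or of the autosomes, was 0.90 to 1.22 with a median of 1.01. The ratio of female to male lists was 0.84 to 1.16. Of the 108 regions, 38 lay at the gene's own promoter and 37 of these were in all 4 lists, while 43 lay in introns and 26 of these were in all 4.

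The LIM genes ap, Lim1, Lim3, tup and Awh, which specify motor neurons and interneurons, held 14, 15, 14 and 14 peaks, and 13 of their 15 regions were in all 4 lists. Apterous, a regulator of neuropeptide neurons, had 1 promoter region with a fold of 15.38, 15.03, 13.15 and 13.62, the fru+ lists being above the fru- lists. By fold as deposited, 8 of the 64 shared autosomal regions of the homeobox genes (12.5%) had this order and 21 (32.8%) the reverse. Of all 6926 shared autosomal regions 9.15% had this order and 34.7% the reverse. After each list was divided by its own autosomal median, 15 of the 64 (23.4%) had fru+ above and 7 (10.9%) had fru+ below. Of all 6926 regions 20.4% then had fru+ above and 17% had fru+ below. The Iroquois genes ara, caup and mirr, which pattern the eye and the notum, had 1 promoter region each in every list, and the fold at caup was 13.92, 13.24, 14.54 and 14.72. The PBC and Meis genes exd and hth held 12 to 14 peaks per list, and 12 of their 13 regions were in all 4.

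The NK-like genes held 13 peaks in every list but female fru-, which held 11, and 10 of their 15 regions were in all 4 lists. The genes lbl, lbe, C15 and slou lie within chr3R:21409979-21557182. The ladybird pair lbe and lbl had 1 promoter region each in all 4 lists, covering 401 to 631 bp at lbe and 479 to 593 bp at lbl. At lbl, which acts in muscle and heart identity, the fold was 17.48, 14.68, 18.11 and 16.04, with both male lists above both female lists. By fold as deposited, 18 of the 64 shared autosomal regions of the homeobox genes (28.1%) had this order and 3 (4.69%) the reverse. Of all 6926 shared autosomal regions 16.1% had this order and 15.7% the reverse. After each list was divided by its own autosomal median, 14 of the 64 (21.9%) had males above and 14 had females above. Of all 6926 regions 12.8% then had males above and 23.6% had females above. The sine oculis family genes so, Six4 and Optix, which act in eye formation, held 3 or 4 peaks per list. The zinc finger genes zfh1 and zfh2 held 9, 7, 8 and 8 peaks.

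The 5 POU genes pdm2, nub, vvl, acj6 and pdm3 held 17 peaks in every list, and 15 of their 19 regions were in all 4. At nub, a gene of wing development and of neuroblast timing together with its neighbour pdm2, the 2 regions covered 1747, 1738, 1739 and 1720 bp, and at pdm2 the 2 regions covered 926, 897, 931 and 920 bp. The lists were close together at both genes. The promoter region of vvl, a POU gene of the trachea and of neurons, had a fold of 12.28, 12.38, 12.85 and 13.63. At acj6 the 3 regions were in all 4 lists, and the promoter had a fold of 9.65, 10.00, 9.18 and 10.52. The covered sequence at acj6, a gene on X, was 1292 bp in male fru+ against 2080, 1839 and 1918 bp in the other lists. Male fru+ was not compared by covered sequence over all windows, so no background share stands beside these values. After each list was divided by its own X median, the ratio of male fru+ to the mean of the others was 0.90, 1.16 and 1.17 at the 3 regions.

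Other paralogue pairs are given side by side. At en, a segment polarity gene that also acts in neuron identity, the 2 regions covered 992, 1004, 1006 and 982 bp, and at inv, its paralogue, the single region covered 545, 489, 501 and 480 bp. At ara the covered sequence was 843, 456, 746 and 801 bp and at caup 508, 407, 475 and 461 bp, with female fru+ lowest at both. The Pax genes eyg and toe had 1 region each, of 503, 420, 416 and 382 bp at eyg and of 937, 932, 958 and 939 bp at toe, where the region lay 1043 bp from the nearest start site. B-H2, a BarH gene of sensory neurons, had 1 region 806 bp from its start site, with a fold of 4.75, 7.93, 5.18 and 5.69. B-H1 had 1 region 56 bp from its start site in 3 lists and none in male fru-, and this is described with the differences by sex.

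A promoter region of its own in all 4 lists was lacking at 9 of the 44 genes. The early neuroectoderm gene ind and the pair-rule and motor neuron gene eve had no peak in any list. Of the remaining 7, bsh had its region in the flank upstream of the gene with a fold of 12.60, 11.47, 14.04 and 12.53, C15 had one at the promoter of a noncoding RNA with a fold of 11.87, 11.47, 11.17 and 11.84, and vnd had one 87 bp away with a fold of 11.46, 11.14, 11.62 and 12.87. The remaining genes were toe, B-H1, B-H2 and slou. At slou the promoter region was in female fru+ alone, with a fold of 2.42.

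The first question was which genes differed by fru status. A gene was called when both fru+ lists lay above, or both lay below, both fru- lists in its number of peaks. None of the 42 genes with a peak had more peaks in the fru+ lists, where 1.7% of the 9958 windows of all protein-coding genes did. Rx and Optix had more in the fru- lists, where 2.95% of all windows did. Rx, a retinal homeobox gene of brain development, had 4 and 3 peaks in male and female fru+ and 5 in each fru- list. Rx covered 2282, 1665, 2534 and 2219 bp, so that by covered sequence the groups overlapped. The extra Rx peaks came in part from a region that crossed the edge of the window, and when the summit had to lie in the window the numbers were 4, 3, 4 and 5 and the call was lost, as it was with a flank of 5 kb (5, 4, 5 and 6) and without the flank (3 in each list). Optix, which acts in the eye and the optic lobe, had 1 peak in each fru+ list and 2 in each fru- list. The additional peaks at Optix were 2 different regions, one in male fru- with a fold of 1.92 and one in female fru- with a fold of 2.11, both at the level of the weakest peaks, and the Optix call was lost at a −log10 q of at least 5 (1, 1, 1 and 2), with lists of equal length (1, 1, 2 and 1) and without the flank (1 in each list). Among windows with a mean of 4 or more peaks, which 8 of the homeobox genes were, 9.29% had more peaks in the fru- lists and 6.25% had more in the fru+ lists, and Rx was the 1 homeobox gene called.

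By covered sequence, with a ratio of at least 1.5 between the group means, none of the 42 genes was called in either direction, where 1.52% of all windows were higher in fru+ and 3.48% were higher in fru-. At Lim3, named after its values were seen, the ratio of fru+ to fru- was 0.801, and its 2 promoter regions covered 1613 and 1778 bp in the fru+ lists and 2264 and 1968 bp in the fru- lists. Their heights did not have this order. After each list was divided by its own autosomal median, the ratio of fold between fru+ and fru- was 1.01 and 1.14. The share of all windows at a ratio below 1.5 was not counted.

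Of the 108 regions, 2 were in both fru+ lists only and 1 in both fru- lists only (1.85% and 0.926%), against 1.46% and 2.77% of the regions in all windows. The former were in ct and pdm3. The ct region, chrX:7620344-7620566 in an intron, had a fold of 3.11 in fru+ males and 3.28 in fru+ females. Cut is a homeodomain protein of sensory organs that also sets dendrite form. The pdm3 region, chr2R:8378019-8378500 in an intron, had a fold of 1.66 in fru+ males and 2.12 in fru+ females. Pdm3 is a POU protein of olfactory and ring neurons. The region of the fru- lists only was in an intron of hth, chr3R:10546695-10546985, with a fold of 2.56 in fru- males and 2.18 in fru- females. All 3 were weak, at percentile 25.3, 24.6 and 9.6 of strength.

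Of the 4 groups, male fru+ is the one sorted for fru-transcribing cells of the sex that makes FruM, and the second question was where male fru+ stood apart from all 3 other lists. By peak number zfh2 was above each other list with 5 peaks against 3 in female fru+ and 4 in each fru- list, and no gene was below. The zfh2 call was kept under each of the 5 alternative windows and thresholds. Over all windows 7.14% were above and 4.41% below, and among windows with a mean of 4 or more peaks 16.2% and 17% were. In the homeobox windows 2 regions were in male fru+ only. The one in zfh2, a zinc finger homeodomain gene of neurons and wing hinge, was chr4:537277-537578 in a coding exon, with a fold of 3.11 and a strength of 24.1. The one in pdm3 was chr2R:8344491-8344709 in an intron, with a fold of 2.11 and a strength of 1.1. Male fru+ only regions were 1.85% of the homeobox regions (0.509 to 6.5) and 7.38% (6.93 to 7.85) of the regions in all windows. A single region was absent from male fru+ only, chr2R:8386134-8386434 in a pdm3 intron, 936 bp from a start site. Its fold was 2.57 in fru+ females, 3.20 in fru- males and 2.95 in fru- females, above the weakest peaks of the male fru+ list. Such regions were 0.926% of the homeobox regions (0.164 to 5.06) and 4.44% (4.09 to 4.81) of those in all windows.

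**Figure D3:**
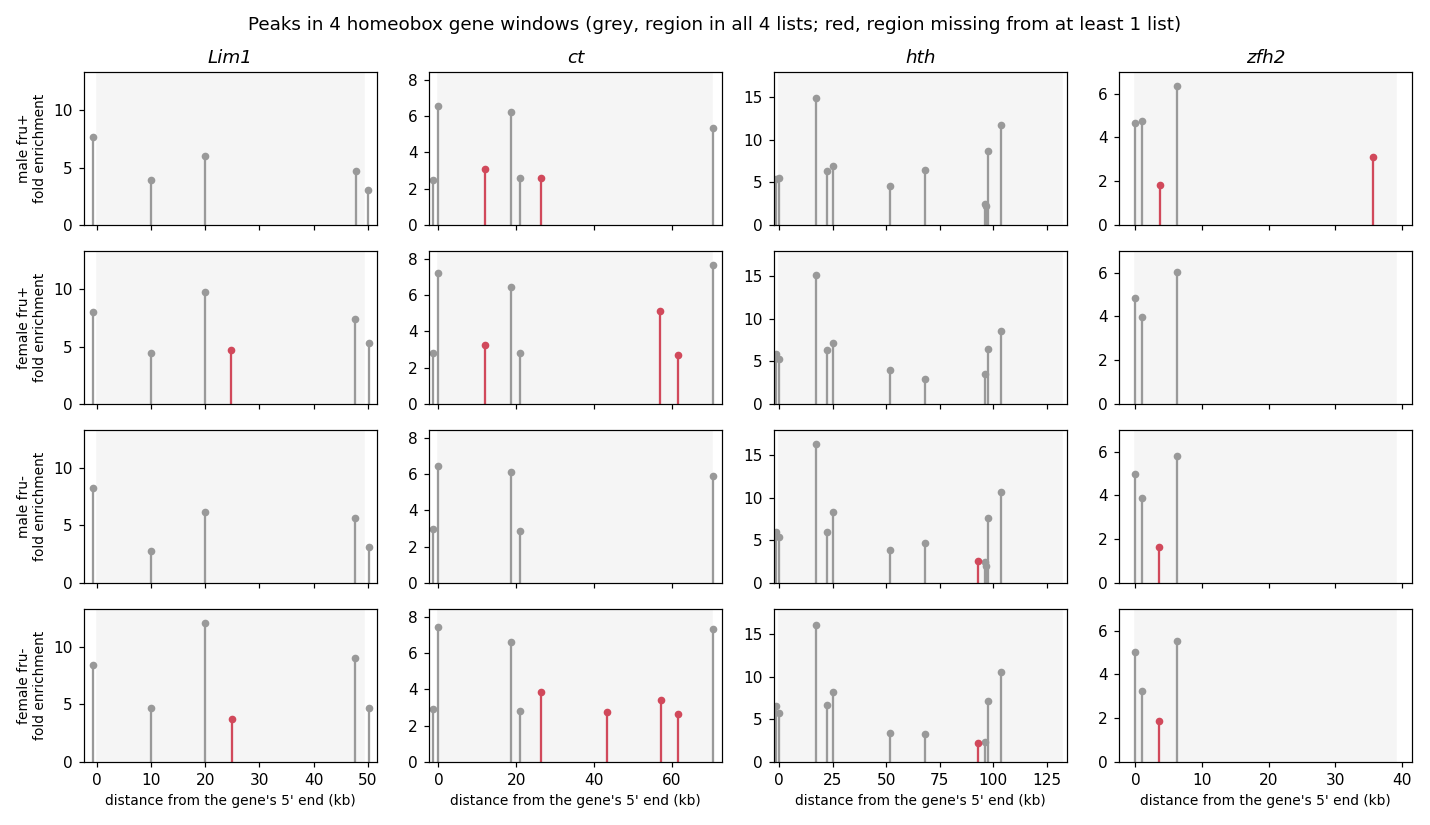
Fold enrichment of each peak (y axis) against its distance from the 5' end of the gene (kb, x axis) for Lim1, ct, hth and zfh2, with 1 row for each list and the gene body shaded. Grey marks regions present in all 4 lists and red marks regions missing from at least 1 list, such as the Lim1 peak in both female lists only and the zfh2 peak in male fru+ only.

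The heights of the 83 regions that all 4 lists shared were compared as well, a comparison chosen after the lists had been seen. The height was the fold enrichment divided by the list's median over shared regions of X or of the autosomes. No region was called by fru status at a ratio of 1.5, where 0.424% of all shared regions were higher in fru+ and 0.194% were higher in fru-. Male fru+ was at least 1.5 times the mean of the other lists, and above each of them, at 2 regions, and below at none, where 1.57% of all shared regions were above and 1.42% below. The first was an intronic region of tup, chr2L:18867685-18868340, which lay 12921 bp from the nearest tup start site. Tailup, the fly Islet, is a LIM protein of motor and dopaminergic neurons. The fold at this region was 10.28 in male fru+ against 5.51, 6.64 and 5.92 in the other lists, and the ratio of relative height was 1.76. The tup promoter had 11.94, 11.18, 12.37 and 11.75, without this difference. The second was an intronic region of hth, chr3R:10571266-10571590, which lay 42686 bp from the nearest start site. Its fold was 6.49 in male fru+ against 2.95, 4.63 and 3.28 in the other lists, and the ratio was 1.85. This hth region was the 1 autosomal region of 64 called by sex, with both male lists above both female lists, where 0.159% of all shared autosomal regions were higher in males and 0.101% were higher in females.

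Smaller differences of the same kind were seen at other intronic regions, named after their values were seen. At the Rx region chr2R:20935072-20935512 the fold was 6.02 and 5.80 in males (fru+ and fru-) against 3.93 and 3.91 in females. At the pdm3 region chr2R:8345015-8346841 it was 2.53 in male fru+ against 3.21, 3.77 and 3.85, with a ratio of 0.72, the lowest of the 83 regions. At the zfh2 region chr4:502446-503081 it was 4.76 against 3.99, 3.86 and 3.27. Over the 64 shared autosomal regions of the homeobox genes male fru+ was above each other list at 31 (48.4%, 36.6 to 60.4) and below each at 13 (20.3%), whereas over all 6926 shared autosomal regions it was above at 26.9% and below at 34.5%. With the fold enrichment as deposited the homeobox regions gave 28 above and 17 below, and all regions gave 19.9% above and 42.6% below. The homeobox regions were also higher than the rest, as the promoter medians show, and the part of height in this difference was not tested. The median ratio of male fru+ to the mean of the others was 1.046 over the homeobox regions and 0.989 over all shared regions.

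**Figure D4:**
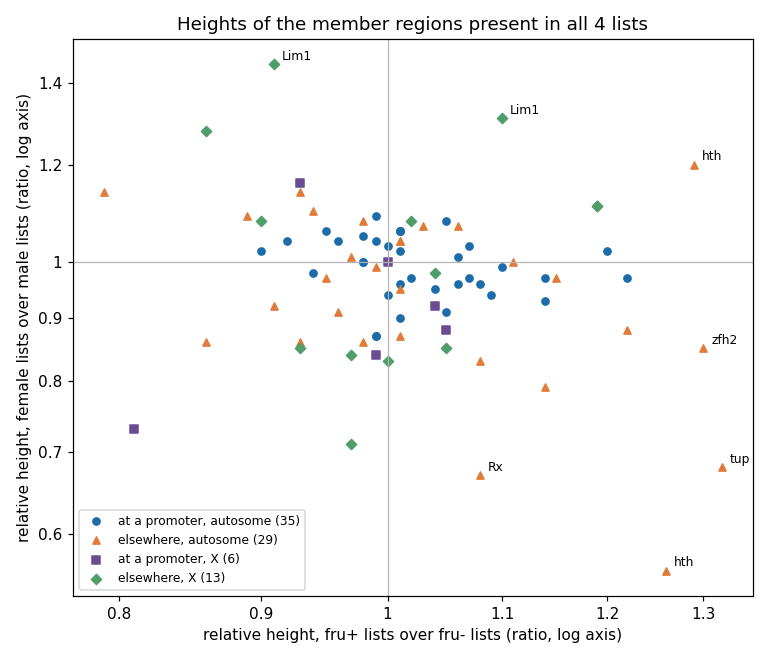
Ratio of relative height between fru+ and fru- lists (x axis, log scale) and between female and male lists (y axis, log scale) for the 83 homeobox regions present in all 4 lists, with 1 point for each region and the shape and colour giving promoter or other position on X or autosomes. Promoter regions lie near 1 on both axes apart from that of a neighbouring gene in the exd window (0.81 and 0.73), and the intronic regions of tup and hth lie furthest to the lower right.

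The third question was which genes differed by sex, read apart on X and on the autosomes because males have a single X. On the autosomes none of the 34 genes with a peak was called by peak number, where 3.63% of all windows were higher in males and 1.24% were higher in females. By covered sequence none was called either, where 4.83% and 0.806% were. At a −log10 q of at least 5, hth and onecut had more peaks in both male lists, where 3.88% of the autosomal windows with such a peak did. On X, ct and Lim1 of the 8 genes had more peaks in both female lists, where 13.7% of all X windows did and 6.64% had more in males. Lim1, a LIM gene of the antenna, leg and optic lobe, had 5 peaks in each male list and 6 in each female list, and covered 3372 and 3518 bp in males (fru+ and fru-) against 4715 and 4771 bp in females. At ct the numbers were 7 and 5 in males (fru+ and fru-) against 8 and 9 in females, and the covered sequence was 3114 and 2714 bp against 3616 and 3997 bp. Among X windows with a mean of 4 or more peaks, which Lim1 and ct were, 62.1% had more peaks in females and 1.72% had more in males, so the 2 genes followed most windows of their kind. With a flank of 5 kb Lim1 alone was called.

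By covered sequence B-H1 was the 1 gene called on X, with 277 and 226 bp in females (fru+ and fru-) against 174 and 0 bp in males. Over all X windows 21.4% were higher in females and 3.17% were higher in males. The B-H1 region, chrX:17397146-17397422, had a fold of 3.64 in fru+ males, 5.44 in fru+ females and 5.46 in fru- females. All 3 regions present in both female lists only were on X. They were the Lim1 intronic region chrX:8780814-8781378 with a fold of 4.65 in fru+ and 3.74 in fru- females, and 2 intronic regions of ct. The first, chrX:7665222-7665697, had a fold of 5.11 in fru+ and 3.39 in fru- females, and the second, chrX:7669658-7670095, had 2.69 and 2.64. These were 11.1% (3.85 to 28.1) of the 27 X regions of the homeobox genes, against 12.5% (11.2 to 13.9) of the X regions in all windows. A single region was in both male lists only, chr3R:21558015-21558223 upstream of slou, with a fold of 2.89 in fru+ and 2.63 in fru- males. Such regions were 0.926% of the homeobox regions (0.164 to 5.06) and 2.32% (2.07 to 2.6) of those in all windows. Slou, or S59, is an NK-like gene of muscle and neuron identity.

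Of the 19 X regions shared by all 4 lists, 13 had a higher fold in both female lists than in both male lists, as did 66.2% of all 1330 shared X regions. After each list was divided by its own X median, none of the 19 was called by sex at 1.5, where 1.35% of all shared X regions were higher in males and 2.56% were higher in females. The nearest was the Lim1 intronic region chrX:8785480-8786266, 127 bp from a start site, with a fold of 5.96 and 6.19 in males (fru+ and fru-) against 9.73 and 12.11 in females, and a ratio of 1.45.

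Other regions that were not in all 4 lists are named here after their values were seen. The strongest of the 25 regions that were not in all 4 lists was an intronic region of C15, chr3R:21511047-21511271, with a fold of 5.85, 4.0 and 4.73 in the other lists, and it was missing from female fru-. C15 is a homeobox gene of the distal leg. An intronic region of Awh, chr3L:3855723-3855982, had 4.11, 3.02 and 3.22 in the same lists and was likewise missing from female fru-, as was a region downstream of onecut with 2.58, 2.10 and 2.26. An intronic region of oc, the fly orthodenticle gene of the head, chrX:8640765-8640981, had 3.69 in fru+ males, 4.0 in fru+ females and 4.25 in fru- females and was missing from male fru-. Regions at Rx and zfh2 were missing from female fru+, the shallowest list. Regions missing from female fru- only, male fru- only and female fru+ only were 2.78%, 1.85% and 1.85% of the homeobox regions. In all windows these shares were 1.41%, 1.41% and 2.57%. An intronic region of Ptx1, a Pitx gene, chr3R:30928630-30928974, was in male fru+ with 4.06 and female fru- with 3.51 only. Such regions were 1.85% of the homeobox regions and 0.984% of those in all windows. The median strength of the 25 regions was 24.8, and 3 of them were above 50.

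The sequences of 8 regions are shown because they carry the differences by group given above. They are the regions in both fru+ lists (ct), in both fru- lists (hth), in both male lists (slou) and in both female lists (2 of ct and 1 of Lim1), and the 2 shared regions that stood highest in male fru+ (tup and hth). The pdm3 and zfh2 regions of the differences by group are given by position alone. Each sequence is the dm6 plus strand, from 5' to 3', cut to 300 bases around the summit where the region was longer, and capitals mark a match to a motif searched on both strands (TAATTA, a homeodomain core, ATGCAAAT, the POU octamer, or TGATTGAT, a site of Extradenticle with a Hox partner). None of the 8 overlaps an annotated exon of a protein-coding gene.
ct intron, chrX:7620344-7620566: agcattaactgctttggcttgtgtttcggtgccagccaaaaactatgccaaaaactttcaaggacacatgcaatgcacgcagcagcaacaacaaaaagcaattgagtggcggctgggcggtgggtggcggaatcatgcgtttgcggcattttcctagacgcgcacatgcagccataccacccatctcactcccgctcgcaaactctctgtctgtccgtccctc
hth intron, chr3R:10546695-10546985: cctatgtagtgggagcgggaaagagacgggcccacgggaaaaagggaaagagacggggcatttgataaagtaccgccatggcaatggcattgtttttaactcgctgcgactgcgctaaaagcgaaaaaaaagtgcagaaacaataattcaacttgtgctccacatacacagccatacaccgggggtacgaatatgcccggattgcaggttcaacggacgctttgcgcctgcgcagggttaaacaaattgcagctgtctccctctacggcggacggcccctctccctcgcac
slou upstream, chr3R:21558015-21558223: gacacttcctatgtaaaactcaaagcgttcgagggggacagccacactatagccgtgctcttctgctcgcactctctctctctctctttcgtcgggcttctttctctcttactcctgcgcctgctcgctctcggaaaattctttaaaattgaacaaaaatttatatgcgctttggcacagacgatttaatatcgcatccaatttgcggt
ct intron, chrX:7665398-7665697: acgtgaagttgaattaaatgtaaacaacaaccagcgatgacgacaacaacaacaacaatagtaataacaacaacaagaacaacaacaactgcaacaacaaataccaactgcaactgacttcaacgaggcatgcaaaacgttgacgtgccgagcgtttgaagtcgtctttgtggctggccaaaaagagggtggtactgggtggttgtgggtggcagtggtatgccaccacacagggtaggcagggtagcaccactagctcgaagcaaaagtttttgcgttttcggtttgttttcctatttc
Lim1 intron, chrX:8780829-8781128: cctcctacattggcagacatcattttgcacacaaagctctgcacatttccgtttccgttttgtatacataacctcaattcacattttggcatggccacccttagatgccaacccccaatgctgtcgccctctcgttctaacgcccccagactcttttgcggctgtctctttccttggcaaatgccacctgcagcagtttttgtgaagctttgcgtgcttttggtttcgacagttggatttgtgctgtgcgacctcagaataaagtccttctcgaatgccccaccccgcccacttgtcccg
ct intron, chrX:7669796-7670095: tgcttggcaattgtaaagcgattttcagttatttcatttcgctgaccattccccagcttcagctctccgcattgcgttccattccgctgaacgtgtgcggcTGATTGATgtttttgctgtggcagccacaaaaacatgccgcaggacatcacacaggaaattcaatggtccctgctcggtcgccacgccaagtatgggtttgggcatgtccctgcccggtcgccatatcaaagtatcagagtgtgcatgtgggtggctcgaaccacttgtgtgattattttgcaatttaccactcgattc
tup intron, chr2L:18867846-18868145: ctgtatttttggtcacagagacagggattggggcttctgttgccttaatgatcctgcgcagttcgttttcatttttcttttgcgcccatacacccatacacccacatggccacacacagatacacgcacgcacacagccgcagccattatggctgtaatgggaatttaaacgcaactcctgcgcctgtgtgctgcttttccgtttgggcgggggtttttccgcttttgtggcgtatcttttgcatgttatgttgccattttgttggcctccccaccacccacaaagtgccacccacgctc
hth intron, chr3R:10571266-10571565: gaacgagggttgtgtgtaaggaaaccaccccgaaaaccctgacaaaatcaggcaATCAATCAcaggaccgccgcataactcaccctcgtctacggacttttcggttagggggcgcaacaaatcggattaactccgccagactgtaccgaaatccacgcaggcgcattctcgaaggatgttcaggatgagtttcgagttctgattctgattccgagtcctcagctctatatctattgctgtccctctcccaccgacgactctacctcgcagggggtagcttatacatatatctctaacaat
In the bases shown, a match is held by the weaker of the female-only ct regions, TGATTGAT, and by the shared hth region, ATCAATCA, which is TGATTGAT read on the other strand. The ct region of the fru+ lists and the slou region are shorter than 300 bases, and the 300 bases searched around their summits hold TAATTA outside the bases shown, 1 match at ct and 2 at slou.

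In 300 bases around the strongest summit of each region, TAATTA was found in 13 of the 108 homeobox regions (12%, 7.17 to 19.5) and in 11.8% (11.3 to 12.3) of all 14709 regions. The octamer ATGCAAAT was found in 1 of 108 (0.926%, 0.164 to 5.06) against 5.6% (5.24 to 5.98) of all regions, and TGATTGAT in 2 of 108 (1.85%, 0.509 to 6.5) against 0.823% (0.689 to 0.982). The 2 with TGATTGAT were the shared intronic hth region and the weaker of the female-only ct regions, and the 1 with the octamer was an intronic pdm3 region. At promoters the octamer was in 0 of 43 homeobox regions against 2.76% of all promoter regions, and away from promoters in 1 of 65 (1.54%) against 7.38%. The regions of the homeobox genes at promoters had a median GC content of 54.0% against 43.0% at all promoter regions. Away from promoters it was 49.3% against 48.0%. The part of base composition in these shares was not tested.

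A second list of 33 homeobox genes outside the 44 was counted in the same way. Of these, 28 had a peak in at least 1 list, and they held 62 to 68 peaks per list. Their 71 regions were in all 4 lists in 76.1% (65 to 84.5), against 76.9% for the 44 genes. By fru status ro and toy had more peaks in the fru+ lists (1.7% of all windows did), and pros and NK7.1 had more in the fru- lists (2.95% did). By covered sequence lms was higher in fru+ (1.52% were) with 218, 23, 5 and 5 bp, where the window edge cuts a peak in every list. By sex HGTX had more peaks in males, as did 3.63% of all autosomal windows. Male fru+ was above each other list at Drgx and lms (7.14% of all windows were) and below at pros, NK7.1 and ey (4.41% were). The genes toy and ey are also on the Kenyon cell list.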

How the data were processed

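ATAC-seq was made from central brain neurons in 4 groups, 8 samples in all. Per the methods, the authors trimmed adapters with cutadapt, mapped reads with Bowtie2 on dm6, dropped duplicates (Picard), kept well-mapped reads and called peaks with MACS2 at a fixed FDR (the lowest deposited −log10 q was 3.07 to 3.22 per list). Versions and a shift of reads to the Tn5 cut site were not given in the sources used here. The deposited lists give for each peak a display score, the fold enrichment at the summit as a ratio, the p-value and q-value as −log10 values, and the summit offset.

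Peaks on 6 chromosome arms were counted in each gene window with Python, and peaks overlapping by 1 bp were merged across lists into regions. Gene models were those of Ensembl on the same genome. Functions were tested on simulated peak lists. Depth was recovered from the fold and p-value of each peak, and read counts were not analysed here. Named genes were those called in a comparison (up to 5 with the largest covered difference), paralogue pairs and genes without a peak, and named regions were the 3 strongest in each of 6 patterns. Some genes outside this rule, among them ap, acj6, vvl, bsh, C15 and vnd, are described with their values too. The genes and lists were chosen with earlier results of these data known. Alternatives were a stricter q-value, lists of equal length, other windows, a stricter overlap, strong regions, autosomes and other folds.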

Additional observations from a re-analysis of the deposited data

Results flagged for a closer look

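At 4 of the 44 homeobox genes the difference in peak number between fru+ and fru- lists went one way in males and the other way in females, and the difference between the sexes was not tested. At ct, male fru+ had 2 more peaks than male fru- and female fru+ had 1 fewer than female fru-, a difference of 3 between the sexes. At zfh2 the differences were 1 in males and -1 in females, 2 apart. At Ptx1 they were also 1 and -1, 2 apart. At slou they were -1 and 1, -2 apart. Over all windows with a peak, 428 of 9958 (4.3%) had such opposite differences, and of the 624 windows with a mean of 4 or more peaks 131 did.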

How the results depend on the processing

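No paired analysis was possible because each group had 1 peak list, and for the same reason no replicate could be left out. Of 178 comparisons of a value with its alternative, 133 stayed within 1.5 times of the value or within its interval and 45 moved. Genes with more peaks in fru- numbered 2 (Rx and Optix), 1 with a −log10 q of at least 5 and with lists of equal length (Rx), 1 with the summit in the window (Optix), 2 with a flank of 5 kb (ind and Optix) and 0 without the flank. Without the flank exex had more peaks in fru+ (1), and covered sequence called 2 genes higher in fru+ (lbl and exex), 1 higher in fru- (Dr), 4 higher in males and 2 higher in females. The covered sequence was then 30106 bp (males) and 28334 bp (females) in fru+, and 30121 and 30377 bp in fru-. With a flank of 5 kb ind was called higher in fru- by covered sequence (1), and Lim1 alone had more peaks in females (1). The share of all windows called was counted with the flank of 2 kb alone. Among the alternative lists it was counted only for autosomal windows with more peaks in males at a −log10 q of at least 5 (3.88%). The other calls at the stricter q-value have no background to be read against. Neither have calls with lists of equal length, with the summit in the window, without the flank or with 5 kb. With a −log10 q of at least 5 and with lists of equal length hth and onecut had more peaks in males (2), and no region was left in both fru- lists only (0). With the former pdm3 fell below each other list in male fru+ (1). Regions of strength above 50 were in all 4 lists in 96.2% and in none of the patterns of male fru+, fru status or both males (0). Autosomes alone left 0 genes called higher in females by peak number or covered sequence, and 0 regions present in both female lists only. Without the flank no region was in both male lists only (0). The heights as deposited called 2 regions higher in males, 3 higher in females and 2 lower in male fru+, and a height ratio of 1.2 called 4 higher in fru+, 1 higher in fru-, 8 higher in males, 3 higher in females, 8 higher and 4 lower in male fru+. A height ratio of 5 to 4, run before that of 1.2, called 2 higher in fru+, 1 higher in fru-, 6 higher in males, 3 higher in females, 7 higher and 2 lower in male fru+. The alternatives on height were chosen after seeing the data. The share of all shared regions called was counted only for relative height at a ratio of 1.5. The counts from the alternatives on height therefore have no background to be read against. Causes were not tested. Depth differed between lists, and with 1 list per group no difference can be set against replicate error.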
